A study of Rattus norvegicus and Mus musculus with 56 samples.

Results

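Transcripts of 9 genes that mark border macrophages or blood monocytes were followed in the mouse dorsal horn after nerve injury: Mrc1, Cd163, Lyve1, F13a1, Ms4a7, Pf4, Ccr2, Ly6c2 and Plac8. The genes were taken as a marker set by their Ensembl identifiers, 9 of 41388 mouse identifiers in the count files. They were read in the 24 mouse libraries of a series of 56, and the 32 rat libraries were not used here. The mice were C57BL/6 wild-type animals of both sexes with spared nerve injury (SNI) or sham surgery, and poly(A) RNA came from the L4:L5 dorsal horn on postoperative day 7, from the operated (ipsilateral) or the other (contralateral) side. SNI cuts branches of the sciatic nerve and spares a neighbouring branch. Sex, surgery and side gave 8 groups of 3 libraries, so each combination of surgery and side held 6. How many animals went into a library, and which libraries came from the same animal, is not in the labels, and the p-values therefore measure the spread between libraries, which may be partly technical.

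Border macrophages live in the meninges and around blood vessels, outside the nervous tissue proper, and are told from microglia by scavenger and mannose receptors that microglia lack or hold at low levels. Classical monocytes are made in the bone marrow, circulate with Ly6C on their surface, and follow the chemokine CCL2 through its receptor CCR2. Whether monocytes join microglia in the spinal cord after injury of a peripheral nerve is a long-standing question in pain research, and it is the question these markers address here. In RNA from whole tissue, fewer cells of a type and less RNA per cell cannot be told apart.

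Reads on genes numbered 27.98 to 42.9 M (mega) a library, with a median of 32.6 M. Levels are given as CPM, read counts scaled to a common library total after trimmed-mean scaling. Dorsal horn neuron genes such as Slc17a6, the glutamate transporter of excitatory neurons, summed to 722 to 1049 CPM in the 24 libraries. Motor neuron genes, of the ventral horn, summed to 21.2 to 388 CPM. A pair of libraries stood apart in neutrophil genes, the female sham ipsilateral library of replicate 1 with 236 CPM and the male SNI contralateral library of replicate 3 with 282 CPM in sum, against 10.5 to 80.2 CPM in the other libraries. Marker tests that rest on these 2 libraries are given with and without them, but correlations only with them.

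All 9 markers were detected and passed the filter on low counts, and all 9 were scarce. Summed, they made up 13.1 to 25.96 CPM in the sham ipsilateral libraries, 14.1 to 31.4 in SNI ipsilateral, 14.6 to 23.4 in sham contralateral and 9.47 to 42.4 in SNI contralateral. These ranges overlapped in every pairing of surgery and side. A list of 14 microglial genes summed to 436 to 536 CPM in the sham ipsilateral libraries and to 707 to 1102 CPM in the SNI ipsilateral libraries, which did not overlap.

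Levels of different genes are compared per kilobase of exon (RPKM), as means over the 24 libraries. Pf4 was highest at 1.33 RPKM, followed by Mrc1 at 0.962, F13a1 at 0.841, Cd163 at 0.699 and Lyve1 at 0.548. Plac8 at 0.274, Ccr2 at 0.173, Ly6c2 at 0.143 and Ms4a7 at 0.0727 RPKM came last. The gap between Lyve1 and Plac8 was the most regular of these steps, with Lyve1 higher in 22 of 24 libraries. The steps between Plac8 and Ccr2 and between Ly6c2 and Ms4a7 held in 16 and 15 of 24 libraries, and neighbours there could not be ordered in every library. In reads, the abundant end was F13a1 with 91 to 423 and Mrc1 with 79 to 368 per library. At the scarce end were Ms4a7 with 5 to 23 reads, Plac8 with 1 to 91 and Ly6c2 with 0 to 95. In the library with 0 reads of Ly6c2, the female SNI ipsilateral library of replicate 2, a count of 0 allows up to 0.0817 CPM (3 reads), counting error only.

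**Figure D1:**
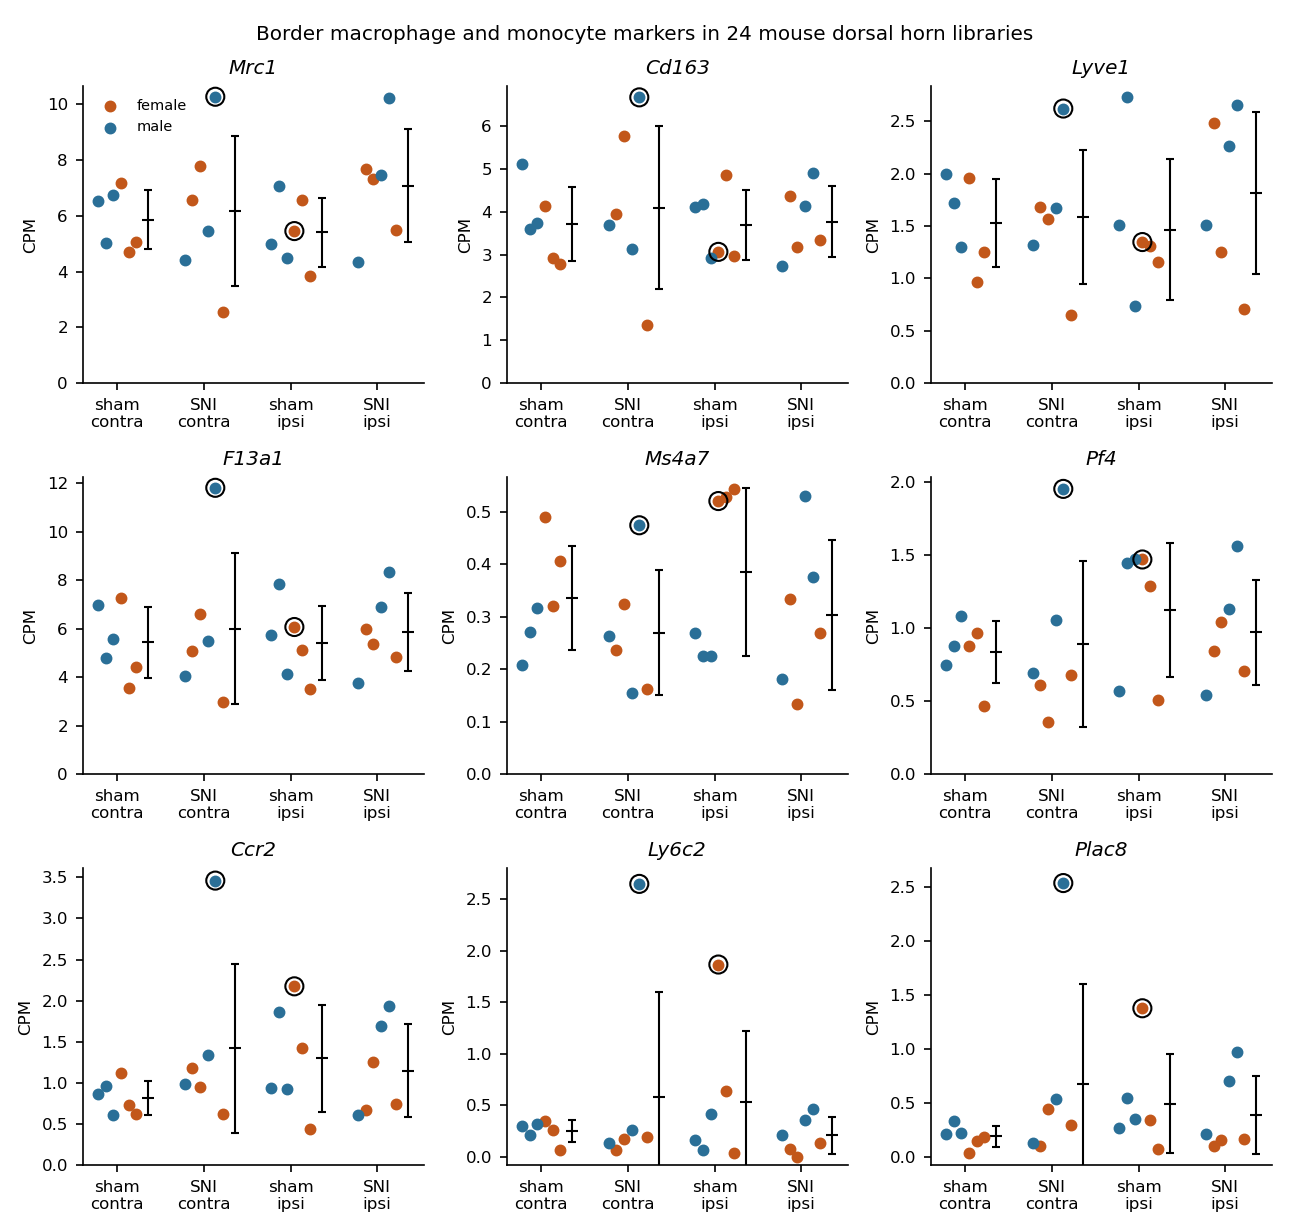
CPM of each marker (linear axes, a separate scale for each gene) in 24 mouse libraries by surgery and side, coloured by sex; the dash and bar beside each column are the mean and SD of 6 libraries, with lower ends cut off at the axis where the SD exceeds the mean, and rings mark the 2 libraries with the highest neutrophil level. SNI and sham libraries of each side overlap for every gene, and the ringed libraries are the highest for Ly6c2 and Plac8, at 1.87 and 2.65 CPM for Ly6c2.

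The first comparison set SNI against sham surgery on the operated side. Limma called 0 of the 9 markers at an adjusted p under 0.05, against 2.07% of the 17587 genes tested (343 higher and 21 lower). None of the 9 reached an unadjusted p under 0.05, and limma voom gave the same counts of 0 called and 0 under that level. The libraries of the surgery groups overlapped for all 9 markers, whereas they did not overlap for 1.51% of genes. Log2 fold changes ran from -0.70 to 0.37, with 4 above zero and 5 below, and their median of -0.14 stood beside a median of -0.00 over all genes tested.

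The scavenger and mannose receptors come first. Mrc1 (ENSMUSG00000026712, chr2:14229392-14332057 on GRCm38, plus strand) encodes the mannose receptor CD206 of border macrophages. It read 3.84, 5.21 and 7.08 CPM (lowest, median and highest of 6 libraries) in sham ipsilateral tissue and 4.32, 7.39 and 10.2 CPM in SNI ipsilateral tissue. The highest library was a male SNI library, and the ranges overlapped. The log2 fold change was 0.37 (SE 0.21, 95% interval -0.10 to 0.83, limma adjusted p = 0.535). It was the lowest adjusted p of the 9 markers.

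Cd163 (ENSMUSG00000008845, chr6:124304656-124330527, plus strand), the receptor that takes up haemoglobin bound to haptoglobin, was nearly level. Its sham ipsilateral libraries ran from 2.92 through a median of 3.58 to 4.87 CPM, and its SNI ipsilateral libraries from 2.72 through 3.74 to 4.91 CPM. The log2 fold change was 0.03 (SE 0.17), with a 95% interval of -0.33 to 0.39, the narrowest of the 9. Lyve1 (ENSMUSG00000030787, chr7:110850607-110863239, minus strand), a hyaluronan receptor also found on lymphatic vessels, read 0.738, 1.33 and 2.73 CPM in sham and 0.708, 1.89 and 2.66 CPM in SNI. The SNI range lay almost wholly inside the sham range. Its log2 fold change was 0.27 (SE 0.33), and its interval of -0.45 to 0.99 had the highest upper end of the 9 markers, a 1.98-fold difference.

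The remaining border macrophage markers were divided in sign. F13a1 (ENSMUSG00000039109, chr13:36867178-37050244, minus strand) encodes the A subunit of coagulation factor XIII, and 1.1% of its exon length overlaps a gene on the other strand, Gm30489, which a count without strand cannot separate. F13a1 read 3.50, 5.43 and 7.82 CPM in sham and 3.75, 5.68 and 8.31 CPM in SNI, a log2 fold change of 0.12 (SE 0.22, 95% interval -0.36 to 0.59). Ms4a7 (ENSMUSG00000024672, chr19:11321039-11336146, minus strand), a membrane protein of the MS4A family, read 0.224, 0.395 and 0.544 CPM in sham and 0.133, 0.302 and 0.530 CPM in SNI. With 5 to 23 reads per library, its log2 fold change of -0.31 (SE 0.26) had an interval of -0.87 to 0.25.

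Pf4 (ENSMUSG00000029373, chr5:90772435-90773383, plus strand) encodes platelet factor 4, a chemokine of platelets that border macrophages also express. It read 0.510, 1.37 and 1.47 CPM in sham ipsilateral tissue and 0.544, 0.942 and 1.56 CPM in SNI ipsilateral tissue. A low library stood in both sexes of the sham group, and the highest value was an SNI library. Its log2 fold change was -0.16 (SE 0.32, 95% interval -0.85 to 0.53).

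The monocyte markers were the most scattered. Ccr2 (ENSMUSG00000049103, chr9:124101950-124113557, plus strand), the CCL2 receptor, read 0.442, 1.18 and 2.17 CPM in sham ipsilateral tissue and 0.605, 0.996 and 1.94 CPM in SNI ipsilateral tissue, a log2 fold change of -0.14 (SE 0.39, 95% interval -1.01 to 0.72). The highest and the lowest library were both sham libraries. Plac8 (ENSMUSG00000029322, chr5:100553725-100572245, minus strand), a small cysteine-rich protein of monocytes and granulocytes, read 0.0680, 0.349 and 1.38 CPM in sham and 0.103, 0.190 and 0.969 CPM in SNI. Its log2 fold change was -0.30 (SE 0.51), with an interval of -1.40 to 0.80.

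Ly6c2 (ENSMUSG00000022584, chr15:75108158-75111970, minus strand) encodes the Ly6C antigen of classical monocytes, and it lies near a close copy, Ly6c1 (ENSMUSG00000079018, chr15:75044018-75048830, minus strand), which endothelium expresses. The open reading frames of both are 396 bases long and differ at 9 bases, an identity of 97.73%. Their first 150 bases, from the GENCODE transcripts on GRCm38, are shown because reads from within them must be told apart by so few letters. Capitals mark the 6 positions that differ there.
Ly6c2: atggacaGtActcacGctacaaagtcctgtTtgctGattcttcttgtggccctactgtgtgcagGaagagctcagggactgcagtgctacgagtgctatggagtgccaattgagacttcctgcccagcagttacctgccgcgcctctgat
Ly6c1: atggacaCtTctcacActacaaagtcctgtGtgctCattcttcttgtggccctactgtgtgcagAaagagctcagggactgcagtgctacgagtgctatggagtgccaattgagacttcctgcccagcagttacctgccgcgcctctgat
Beyond these positions the 2 stretches are identical. Of the distinct 50-base windows in Ly6c2 transcripts, 14.4% also occur in another gene, mainly Ly6c1, and of the 100-base windows 5.81%. For 7 markers, Ccr2 not among them, the shares were at most 0.31% and 0%. Ly6c2 counts are therefore uncertain where the authors' counting could split or drop shared reads.

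Ly6c1 held 729 to 1450 reads per library, and Ly6c2 held 0% to 8.07% of that number, with a median of 0.670%. Ly6c1 read 28.2 to 34.5 CPM in sham ipsilateral and 21.7 to 36.7 CPM in SNI ipsilateral libraries. In the libraries with the most Ly6c2 reads, 61 and 95, Ly6c1 read 29.6 and 32.8 CPM, inside the range of the others. Ly6c2 itself read 0.0340, 0.293 and 1.87 CPM in sham ipsilateral tissue and 0, 0.173 and 0.469 CPM in SNI ipsilateral tissue. The group ranges overlapped, with 1 sham library far above the rest, and the log2 fold change was -0.70 (SE 0.64, 95% interval -2.10 to 0.71), the widest interval of the 9.

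Microglial genes in the same libraries gave a measure of what a change looked like there. Of the 14 genes, 13 rose in SNI ipsilateral tissue, with a median log2 fold change of 1.05, a 2.07-fold difference. C1qc, a chain of complement C1q, rose by 1.27 (SE 0.08), and Tmem119, a microglial membrane protein, by 1.08 (SE 0.09). Sall1, a transcription factor of microglia, stood at 0.23 (SE 0.07, limma adjusted p = 0.142). With both sexes together, the upper ends of all 9 marker intervals lay below the microglial median, that of Lyve1 narrowly at 0.99. That order is a description only. The microglial list was drawn up with its rise known, and the fit understates fold changes of scarce genes, as these markers are. The order did not hold within each sex. In males the upper ends of Ly6c2 (2.69), Plac8 (2.01), Lyve1, Ccr2 and Ms4a7 lay above the male microglial median of 1.18. Those of Mrc1, Cd163, F13a1 and Pf4 lay below it. In females the upper ends of Lyve1 (1.06) and Mrc1 (1.05) lay above the female microglial median of 0.92, and the others below.

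**Figure D2:**
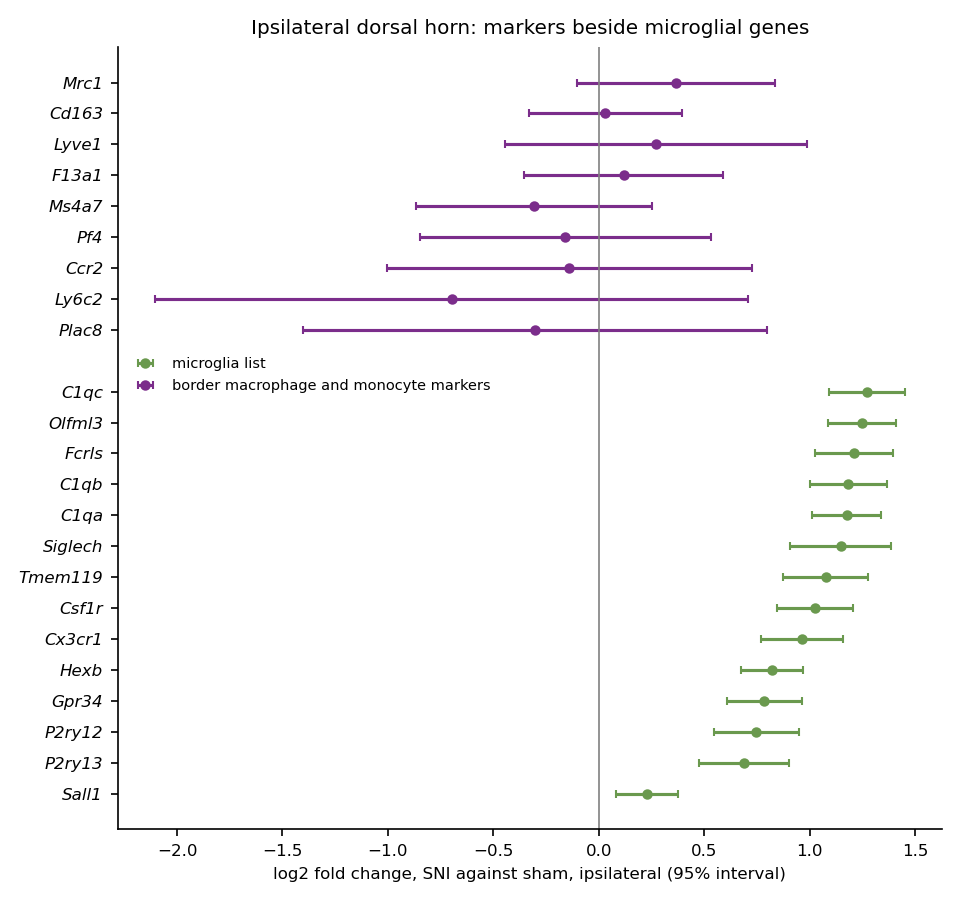
Log2 fold changes of SNI against sham in ipsilateral tissue (horizontal axis, limma estimate with 95% interval, 6 libraries a group) for the 9 markers and for 14 microglial genes. All 9 marker intervals cross zero and end at or below 0.99, while the microglial estimates run from 0.23 to 1.27 with a median of 1.05.

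In an exact two-sided permutation test, the surgery labels were exchanged within sex in all 400 ways, with a smallest possible p of 0.005. The 9 markers gave exact p-values from 0.135 for Mrc1 to 0.83 for Cd163, unadjusted. Relative to the mean log2 CPM of the microglial list in the same library, which was higher in SNI by 0.97, the markers' log2 differences ran from -1.67 for Ly6c2 to -0.60 for Mrc1. The microglial list was drawn up with its rise in these libraries known, so these differences are a description.

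The chemokines that draw monocytes were measured in the same tissue. Of 8 attractants and growth factors, 6 could be tested and 3 rose ipsilaterally, all ligands of CCR2. Ccl2 and Ccl7 met the filter on low counts only through SNI libraries, so that count was partly fixed by the filter. Ccl2 ran from 0.0680 through a median of 0.144 to 0.225 CPM in sham and from 0.180 through 0.730 to 1.42 CPM in SNI, and rose by 1.81 (SE 0.27, limma adjusted p = 0.00115). Ccl7 ran from 0.102 through 0.193 to 0.236 CPM in sham and from 0.231 through 1.80 to 4.63 CPM in SNI, and rose by 2.55 (SE 0.38, limma adjusted p = 0.00196). Ccl12 rose by 1.56 (SE 0.25). For both Ccl2 and Ccl7 only the female SNI library of replicate 1 lay inside the sham range, whereas for their receptor gene Ccr2 all 6 SNI libraries did. Csf1, the growth factor of macrophages, stood at 0.42 (SE 0.10, limma adjusted p = 0.0659).

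Further genes listed for the same cells also had 0 called, against 2.07% of all genes tested. Among 12 other border macrophage genes 8 could be tested and 0 were called, with a median log2 fold change of 0.14. Stab1, the scavenger receptor stabilin-1 and the most abundant of that list, stood at 0.40 (SE 0.11, limma adjusted p = 0.113). Among 12 other monocyte genes 10 could be tested and 0 were called, with a median of -0.06. Fn1, the matrix protein fibronectin and their most abundant member, stood at -0.03 (SE 0.32). Fn1 averaged 81.3 CPM over all libraries against 1.17 CPM for Ccr2, and its source among cell types was not tested. Of 10 tested neutrophil genes 1 rose, Csf3r with 1.13 (SE 0.10), the receptor of granulocyte colony-stimulating factor and the most abundant of that list. Which cells its reads came from was not tested. The median of the neutrophil list was -1.24, -2.41 in females, who hold the sham library high in neutrophil genes, and 0.07 in males. Of 3 tested lymphocyte genes, 6 red cell genes, 5 neutrophil precursor genes and 4 bone genes 0 were called, with medians of -0.24, -0.90, -0.89 and -0.26. Without the 2 libraries high in neutrophil genes the neutrophil median was -0.61, and these 4 medians were 0.17, -0.76, -0.14 and 0.03. Of 4 tested dendritic cell genes 1 rose, Siglech by 1.15 (SE 0.11), a receptor of plasmacytoid dendritic cells that the microglial list also holds. The median of that list was -0.04, and its summed level had a median of 57.0 CPM in sham and 68.9 CPM in SNI ipsilateral libraries. The part of blood and marrow cells in the marker values was not tested beyond the fits with their levels as covariates.

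On the contralateral side limma called 0 of the 9 markers and 0% of all genes tested, 0 of 17597, with 339 genes and 0 markers at an unadjusted p under 0.05; limma voom also called 0. Group ranges overlapped for all 9, and 0.0455% of genes did not overlap. Cd163, Mrc1, Lyve1, F13a1 and Pf4 lay between -0.05 and 0.05. Ccr2 read 0.603, 0.796 and 1.12 CPM in sham and 0.616, 1.09 and 3.46 CPM in SNI, a log2 fold change of 0.57 (SE 0.28, 95% interval -0.02 to 1.17, limma adjusted p = 1). Plac8 read 0.0351, 0.198 and 0.332 CPM in sham and 0.101, 0.368 and 2.54 CPM in SNI, a log2 fold change of 0.98 (SE 0.53, 95% interval -0.17 to 2.13). A single male library was the highest for Ccr2, Plac8 and Ly6c2, and 0 of the 9 markers differed beyond the spread.

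Side was compared within each surgery. In SNI mice 0 of 9 markers were called between the ipsilateral and the contralateral side, against 6.73% of 18018 genes, and 0 markers were free of overlap, against 2.6% of genes. Their log2 differences, ipsilateral against contralateral, ran from -0.62 for Ly6c2 to 0.27 for Mrc1, with a median of 0.06 beside 0.00 over all genes. Without the 2 libraries high in neutrophil genes Ly6c2 stood at -0.04 (SE 0.48). Of the 8 tested other border macrophage genes 0 were called, with a median of 0.15. Without those 2 libraries 1 of the 8 was called higher ipsilaterally, with a median of 0.22, against 1040 of 18018 genes called. All 14 microglial genes were higher ipsilaterally, with a median of 1.26, and so were 5 of the 6 tested attractants. These were Ccl7 by 3.17, Ccl2 by 2.19, Ccl12 by 1.83, Csf1 by 0.55 and Il34, the other ligand of the CSF1 receptor, by 0.30. In the contralateral libraries alone 4 of the 8 listed attractants and growth factors met the filter, so this count too was partly fixed by it. Motor neuron genes went the other way, 3 of 6 lower, among them Chat at -1.49 (SE 0.36). With the motor neuron level as a covariate 0 of 9 markers were called, against 340 of 18018 genes.

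In sham mice 0 of 9 markers were called between sides and 0% of genes, with 731 of 18018 genes and 0 markers at an unadjusted p under 0.05 and 0 called by limma voom. None of the 9 was free of overlap, against 0.25% of genes. The largest difference was 0.90 for Plac8 (SE 0.57). The interaction of surgery and side, which asks whether the effect of SNI differed between sides, also called 0 of 9 markers against 0.633% of genes. It ran from -1.28 for Plac8 to 0.40 for Mrc1. Without the 2 libraries high in neutrophil genes, Plac8 stood at 0.46 (SE 0.42) between sides in sham mice and at -0.35 (SE 0.59) in the interaction. With the neutrophil level as a covariate the Plac8 values were 0.11 and 0.02.

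**Figure D3:**
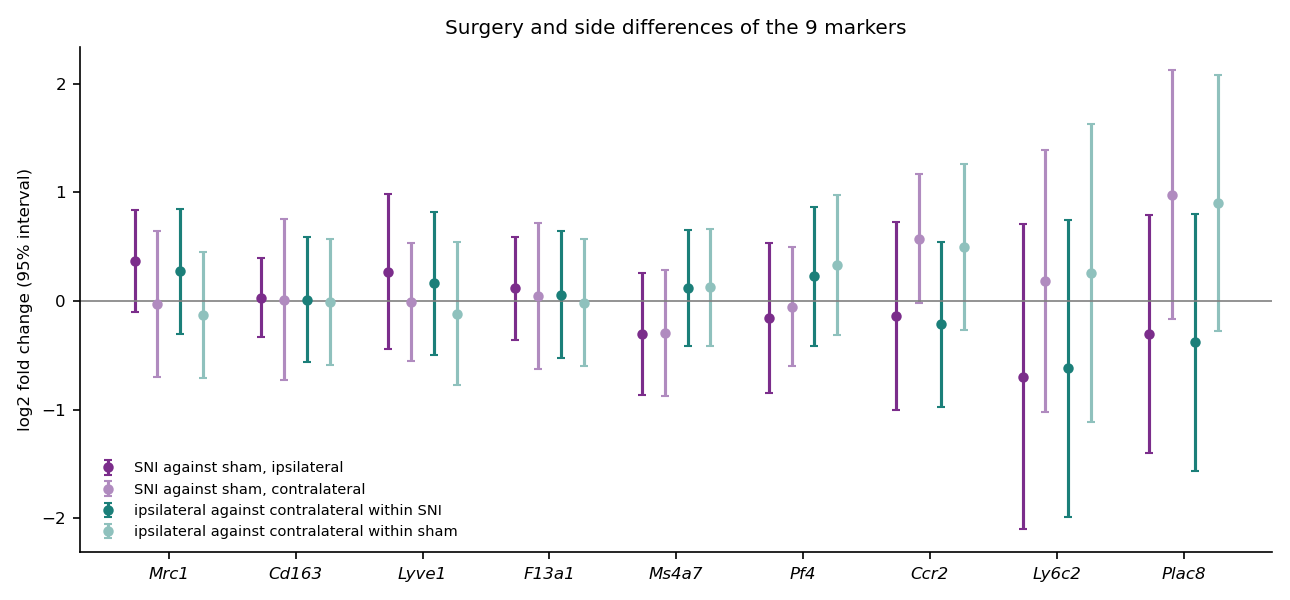
Log2 fold changes of the 9 markers (vertical axis, limma estimate with 95% interval) in the 2 surgery comparisons and the 2 side comparisons, with 6 libraries in each group. Every interval crosses zero, and in the ipsilateral surgery comparison the narrowest is that of Cd163, -0.33 to 0.39, and the widest that of Ly6c2, -2.10 to 0.71.

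The sexes were compared over all 24 libraries and in their ipsilateral response. Between females and males 0 of 9 markers were called, against 0.544% of genes, and 0 were free of overlap, against 0.0888%. Values lay below zero, lower in females, for 8 of 9 markers, from -0.13 for Mrc1 to -0.90 for Plac8 (SE 0.40, limma adjusted p = 0.541), and Ms4a7 stood at 0.22. Over all 18018 genes 48.1% lay below zero, and the median was 0.00. Plac8 alone had an unadjusted p under 0.05, and with limma voom 0 markers did. The values of Ly6c2, Ccr2, Mrc1 and F13a1 changed sign over the settings tried. They ran from -0.92 to 0.79, -0.49 to 0.11, -0.21 to 0.03 and -0.36 to 0.005. Those of Plac8 ran from -1.13 to -0.03. Red cell genes had a median of -0.84, with 1 of 6 lower, Alas2 at -1.02 (SE 0.21), and neutrophil genes one of -0.79, with 0 of 12 called. Their part in the marker values was not tested beyond the fits with their levels as covariates. Plac8 averaged 0.286 CPM in females and 0.586 CPM in males. Ly6c1, the endothelial copy of Ly6c2, was called lower in females by this test, at -0.35 (SE 0.04), while Ly6c2 stood at -0.63 (SE 0.46).

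The difference in ipsilateral SNI effect between females and males was called for 0 of 9 markers and 0% of genes, with 1817 of 17587 genes and 1 marker at an unadjusted p under 0.05 and 0 called by limma voom. The marker was Ms4a7, with an interaction of -1.41 (limma adjusted p = 0.44). In females it read 0.521, 0.528 and 0.544 CPM in sham and 0.133, 0.270 and 0.333 CPM in SNI, and in males 0.224, 0.225 and 0.269 CPM in sham and 0.181, 0.375 and 0.530 CPM in SNI. The female groups did not overlap and the male groups did, from 5 to 23 reads per library in females and 6 to 15 in males. Such groups of 3 libraries did not overlap for 14.3% of all genes in females and for 19.6% in males, where 0 of 9 markers were free of overlap, so the separation of 1 of 9 markers in females was near the background share. Within females 0 of 9 markers were called against 0.409% of genes, and within males 0 of 9 against 2.02%. The block of libraries titled 49 to 56 holds male SNI libraries but no male sham library. The male comparison and the sex interaction are therefore confounded in part with that block. At an unadjusted p under 0.05 the females had 2 markers, Ms4a7 at -1.01 (SE 0.37) and Ly6c2 at -2.10 (SE 0.91, limma adjusted p = 0.549), and the males 0. The Ly6c2 value rests on the female sham library with 1.87 CPM and was -1.13 (SE 0.81) without the 2 libraries high in neutrophil genes, where Ms4a7 stood at -1.02. The interaction of Ly6c2 with sex went from -2.81 to -1.84 (SE 1.08) without them, and ran from -4.03 to -1.11 over the settings tried.

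The 2 libraries high in neutrophil genes were also the highest for the monocyte markers of their groups. The female sham ipsilateral library held 61 reads of Ly6c2 and 45 of Plac8, or 1.87 and 1.38 CPM. The male SNI contralateral library held 95 reads of Ly6c2, 91 of Plac8 and 124 of Ccr2, or 2.65, 2.54 and 3.46 CPM. Genes of neutrophil precursors, which belong to the bone marrow, were high in the same libraries. That list shares genes with the neutrophil list that picked out these libraries, so its level there was partly fixed by the choice. Mpo, the myeloperoxidase, is in the neutrophil list. It read 6.58 and 10.9 CPM in the 2 libraries against a median of 0.492 CPM over sham ipsilateral and 0.232 CPM over SNI contralateral libraries.

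They differed in other respects. The bone genes Ibsp and Bglap read 21.8 and 7.84 CPM in the female library and 2.46 and 0.0837 CPM in the male library. Col1a1, a collagen chain of bone and of fibroblasts, read 262 CPM in the female library against a sham ipsilateral median of 35.03 CPM. Slc4a1, the anion exchanger of red cells and their precursors, read 29.97 CPM in the male library against an SNI contralateral median of 0.897 CPM. The microglial sums of these 2 libraries were 481 and 471 CPM, inside the range of 436 to 536 for the sham ipsilateral group and at the top of the range of 369 to 471 for the SNI contralateral group.

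Without these 2 libraries 0 of 9 markers were called in any comparison. Of all genes, 313 of 17587 were called ipsilaterally, 1040 of 18018 between sides in SNI and 0 contralaterally. In the surgery comparisons 5 of the 6 monocyte values moved towards zero. Both libraries were the highest of their groups for these genes, which fixed the direction of each move. Ipsilaterally Ly6c2 went from -0.70 to -0.21 (SE 0.54), Plac8 from -0.30 to 0.14 (SE 0.39) and Ccr2 from -0.14 to 0.09 (SE 0.37). Contralaterally Plac8 went from 0.98 to 0.49 (SE 0.41) and Ccr2 from 0.57 to 0.32 (SE 0.22), and Ly6c2 went from 0.18 to -0.39 (SE 0.37). With the neutrophil level as a covariate instead, the ipsilateral values were 0.06 for Ly6c2, 0.32 for Plac8 and 0.25 for Ccr2. Plac8 and Ccr2 ipsilaterally and Ly6c2 contralaterally thus changed sign with 1 library a side, all uncalled, and Mrc1 ipsilaterally stood at 0.39 without the 2 libraries and at 0.37 with them.

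Mrc1, Cd163, Lyve1 and F13a1 varied together among libraries, and Ms4a7 and Pf4 less closely with them. After each library's value was taken as a deviation from its group mean on the log2 scale, Pearson correlations among these 4 markers ran from 0.719 for Cd163 with Lyve1 to 0.923 for Mrc1 with F13a1 over 24 libraries. Ms4a7 had 0.432 to 0.64 with them. Pf4 had at most 0.448 with any border marker, beside 0.737 with Ccr2, 0.633 with Ly6c2 and 0.616 with Plac8. Ly6c2 and Plac8 had 0.707 with each other. The 2 libraries high in neutrophil genes, the highest for Ly6c2 and Plac8, are among the 24. Correlations were not computed without them. These are descriptions of libraries that may share animals and that share preparation and depth.

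Of 18012 genes outside the set of 6 border markers, the 5 most like their mean deviation were Serping1 (0.915), which encodes the C1 inhibitor, Col3a1 (0.913), a fibrillar collagen chain, Mxra8 (0.899), Cp (0.899), which encodes ceruloplasmin, and Rell1 (0.884). Dcn, the fibroblast proteoglycan decorin, ranked 15 with 0.858, and the border macrophage genes Stab1 and Siglec1 ranked 49 and 52. Ccr2 ranked 74 with 0.788. Csf1r, which microglia and macrophages share, ranked 5032 with 0.19.

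Meningeal fibroblast genes summed to 191 to 932 CPM over the 24 libraries, with medians of 443 in sham ipsilateral, 404 in SNI ipsilateral, 404 in sham contralateral and 456 CPM in SNI contralateral libraries. The female SNI contralateral library of replicate 3 had the lowest sum, 191 CPM, and the lowest Mrc1, Cd163, Lyve1 and F13a1, at 2.56, 1.36, 0.649 and 2.95 CPM. The male SNI contralateral library of replicate 3 had 669 CPM and the highest Mrc1, Cd163 and F13a1, at 10.3, 6.67 and 11.8 CPM. None of the 12 meningeal fibroblast genes was called between SNI and sham ipsilaterally, with a median of -0.02.

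With the meningeal fibroblast level as a covariate, the ipsilateral SE of Mrc1 went from 0.21 to 0.11 and that of F13a1 from 0.22 to 0.10. Mrc1 then stood at 0.42 with a limma adjusted p of 0.0621, the lowest of any marker under any setting, and still was not called. F13a1 stood at 0.17 (adjusted p = 0.519) and Cd163 at 0.06 (adjusted p = 0.907). In the libraries titled 49 to 56 a larger share of reads fell on genes (75.4% to 76.1% against 71.4% to 74.7%). That block holds the male SNI libraries of replicates 2 and 3 and the female sham and SNI libraries of replicate 3. It holds no male sham library, so in males block and SNI can be told apart only in part. With a term for the block Mrc1 stood at 0.37 and Ly6c2 at -0.50, and 0 of 9 were called, against 333 of 17587 genes.

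**Figure D4:**
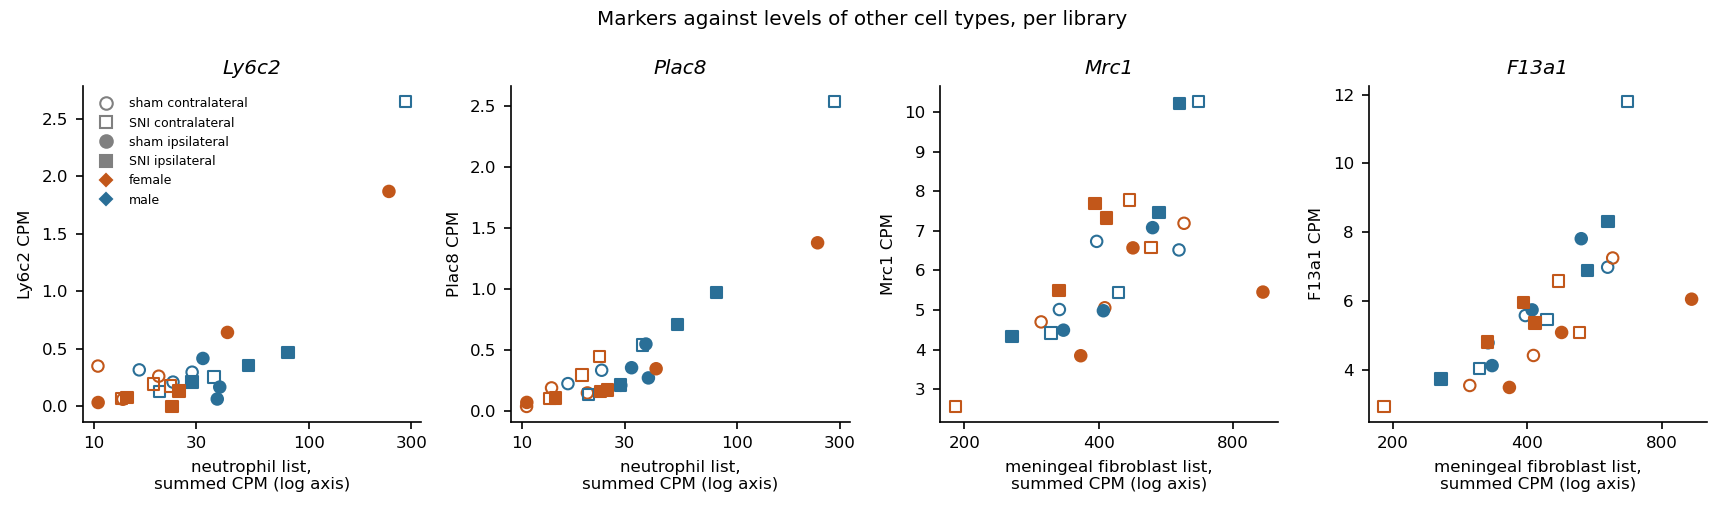
CPM of Ly6c2 and Plac8 against the summed CPM of a neutrophil list, and of Mrc1 and F13a1 against that of a meningeal fibroblast list (horizontal log axes, vertical linear axes), 1 point a library for 24 libraries, coloured by sex and shaped by surgery and side. The 2 libraries at 236 and 282 CPM of neutrophil genes carry the highest Ly6c2 and Plac8, and Mrc1 and F13a1 are lowest in the library with 191 CPM of fibroblast genes.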

How the data were processed

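The authors deposited 1 table of read counts per gene for each library, without normalization. The submitters' processing notes name STAR and the builds GRCm38 and mm10, without roles, and the sources used here do not give the counting program, strand setting or annotation. Because the tables use tabs although their file type says commas, an automatic format check did not accept the column as counts. A count test was planned as the main test and was not run; limma's trend method on log2 CPM took its place. Entries that name no gene were kept out: 12.3% to 15.8% of reads in no feature, 9.92% to 12.8% without a unique position and 0.370% to 0.418% ambiguous.

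Libraries were scaled by trimmed means of M-values (30% of ratios and 5% of levels trimmed), with factors from 0.942 to 1.03. Genes with about 10 counts in at least 3 libraries and a total of 15 were kept. Log2 CPM used a prior count of 2, which understates fold changes of scarce genes. Linear models were fitted in limma 3.58.1 (R 4.3.3), two-sided, with Benjamini-Hochberg adjustment over all genes tested and a call at an adjusted p under 0.05. The surgery comparisons used the 12 libraries of a side, and the others all 24 (the sex interaction 12). The code was tested on simulated data. Chi-square tests over 24 library pairs gave 6.10 to 31.4 per degree of freedom, so no libraries were treated as duplicates. Symbols were matched for 40254 of 41388 identifiers (99.8% of reads), and positions, exon lengths and transcripts are from GENCODE on GRCm38, which may differ from the annotation the authors counted on.

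All 9 markers were tested in every comparison and are each described in the ipsilateral surgery comparison. Elsewhere some appear only within counts, ranges or figures. Other listed genes are named where called, where most abundant in their list, or as a near copy of a marker; the 5 genes most like the border markers were named by correlation. The following genes were named outside that rule after their values were seen: Sall1, Csf1, Siglec1, Dcn, Csf1r, Mpo, Ibsp, Bglap, Col1a1 and Slc4a1. The markers and lists were chosen with earlier results of these data known. The neutrophil precursor and bone lists were added after values were seen, as were the tests without 2 libraries, with the neutrophil level, and by exact permutation. Replicate numbers only name libraries. Figures were drawn in matplotlib 3.10.9 and tables handled in pandas 2.3.3 (Python 3.11.15). Some results on other genes are not reported here.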

Additional observations from a re-analysis of the deposited data

Results flagged for a closer look

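In 36 groups (9 markers by 4 combinations of surgery and side, 6 libraries each), 5 values lay so far from the others that the gap to the nearest exceeded 0.625 of the group's range. Chance alone gives about 1 such group in 20. The male SNI contralateral library of replicate 3 was the highest for Ly6c2 at 2.65 CPM, for Plac8 at 2.54 CPM and for Ccr2 at 3.46 CPM. The female sham ipsilateral library of replicate 1 was the highest for Ly6c2 at 1.87 CPM and for Plac8 at 1.38 CPM. The same 2 libraries held the highest neutrophil sums, 282 and 236 CPM.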

How the results depend on the processing

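Each marker was refitted under other settings, 24 or 35 for each of 7 comparisons, since only libraries in a fit can be left out of it and a fit on all 24 libraries is another setting only where the comparison used 12. That gave 1908 values. The number of markers called was 0 in every combination of comparison and setting run, with adjusted p-values down to 0.0621. The sign of an uncalled value differed from the main one in 192 of the 1908, and in 23 of these the main value exceeded 0.3 in size. Over the settings, the ipsilateral value of Mrc1 ran from 0.23 to 0.53, that of Plac8 from -0.73 to 0.43 and that of Ly6c2 from -1.30 to 0.56. Counts over all genes moved more. Ipsilateral calls were 364, 211 with the red cell level as a covariate, and 269 to 432 with 1 library left out. Side within SNI gave 1213 calls, 340 with the motor neuron level as a covariate and 618 to 2115 with 1 library left out. With unscaled library totals its calls were 802 higher and 355 lower, against 631 and 582. Female against male gave 98 calls, 31 with the red cell and 57 with the neutrophil level as a covariate, and 53 to 133 with 1 library left out. Contralateral calls were 0 to 2, calls between sides in sham 0 to 1 and calls of the sex interaction 0 to 1 with 1 library left out. Side within sham gave 1 call with no filter on low counts. The median of all genes shifted by -0.00165 (median of ratios) and 0.0218 (library totals) on the log2 scale. The planned count tests were not run because the column was not accepted as counts. No paired analysis was possible because the labels give no replicate numbers that groups share.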
